A study of Homo sapiens with 21 samples.

Results

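The genes described here were the NF-κB subunits and the genes that act back on them, 10 genes of the 42339 gene identifiers in the count table of 21 RNA-seq libraries. They were chosen by name, and each of the 10 symbols (NFKB1, NFKB2, REL, RELA, RELB, NFKBIA, NFKBIE, TNFAIP3, BIRC3 and IKBKE) matched 1 identifier. All libraries came from BT-549, an established human triple-negative breast cancer (TNBC) cell line, with 3 cultures in each of 7 groups. The 2D cells grew attached in RPMI1640 with serum and insulin, whereas the 3D cells grew as untransduced mammospheres at passage 6 in MammoCult medium on ultra-low attachment plates, so that growth format and medium cannot be told apart. The 3D + GO-203 mammospheres, also at passage 6, had 0.75 µmol/L GO-203, a peptide that blocks the function of MUC1-C, the transmembrane C-terminal subunit of mucin 1. The tet-MUC1shRNA mammospheres at passage 6 and the tet-MYCshRNA mammospheres at passage 8 carried an inducible shRNA against MUC1 or MYC and received either 0.1% DMSO (vehicle) or 500 ng/ml doxycycline (DOX). Each target had 1 shRNA sequence, and no DOX libraries of a control shRNA were analysed here, so the effect of silencing and that of DOX itself cannot be told apart. The 4 comparisons asked how 3D growth (3D against 2D), MUC1 silencing (DOX against vehicle), GO-203 (treated against control 3D cells) and MYC silencing (DOX against vehicle) moved these genes. The labels name the 3D libraries without GO-203 only as control, whereas the paper describes the GO-203 comparison as against vehicle. The 3D libraries stand in both the first and the third comparison, and RNA of whole cultures does not separate fewer cells of a kind from less RNA per cell.

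NF-κB is a family of dimeric transcription factors. RELA, REL and RELB carry the transactivation domains, whereas NFKB1 and NFKB2 encode the precursors p105 and p100 of the DNA-binding subunits p50 and p52. In resting cells the dimers are held in the cytoplasm by IκB proteins. The canonical pathway, through the IKK complex and degradation of IκBα, mainly releases p50 dimers with RELA or REL, and the noncanonical pathway, through NIK and processing of p100, releases p52 with RELB. NF-κB then switches on its own brakes, among them IκBα (NFKBIA), IκBε (NFKBIE) and the ubiquitin-editing enzyme A20 (TNFAIP3), as well as the ubiquitin ligase cIAP2 (BIRC3), which limits cell death and keeps NIK low. IKBKE encodes IKKε, an IKK-related kinase described as an oncogene in breast cancer.

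Library totals ran from 38026597 to 99751717 counts. Levels are given as CPM, each count divided by the library total, with TMM factors over the 21 libraries. The targeted genes fell with DOX: MUC1 was at 101, 83.2 and 86.6 CPM in the vehicle and at 19.7, 21.2 and 23.3 CPM in the DOX cultures of its line, and MYC at 439, 418 and 386 against 244, 279 and 297 CPM. The labelled tissue is epithelial breast, but EPCAM was at most 0.125 CPM and CDH1 and KRT8 at most 1.51 and KRT18 at most 0.974 CPM in any library. Of the mesenchymal markers, VIM was at least 1076 CPM in every library. FN1 went from a mean of 451 CPM in 2D to 6733 CPM in 3D cells, and CDH2 from 442 to 51.3 CPM. CDH2 was at 11.9 CPM in tet-MUC1shRNA vehicle and 74.2 CPM in DOX cultures, and FN1 at 5177 CPM in tet-MYCshRNA vehicle and 12470 CPM in DOX cultures. ESR1 and PGR, the hormone receptor genes, were at most 1.48 and 0.0684 CPM, whereas ERBB2 was at 18.4 to 41.99 CPM, with means of 20.0 and 35.8 CPM in tet-MYCshRNA vehicle and DOX cultures. Of the blood cell markers, PTPRC reached 1.49 and CD14 0.635 CPM, and CD3E stayed at or below 0.0653 CPM. PECAM1, an endothelial marker, reached 10.1 CPM in mammospheres and VWF, the other one, stayed at or below 0.171 CPM. From 2D to 3D cells, the mean of PECAM1 went from 0.0114 to 6.77, that of CDH1 from 1.42 to 0 and that of PTPRC from 1.26 to 0.0632 CPM. In the tet-MUC1shRNA cultures with DOX, KRT8 lay between 1.14 and 1.51 CPM, above the vehicle cultures with at most 0.0787 CPM, and the part of such differences in cell state in the changes of NF-κB genes was not tested.

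The 10 genes lie on 8 different chromosomes and are not neighbours. In GRCh38 with GENCODE release 44, the subunit genes are NFKB1 (ENSG00000109320, chr4:102501330-102617302, plus strand), NFKB2 (chr10:102394110-102402524, plus), REL (chr2:60881491-60931612, plus), RELA (chr11:65653599-65663090, minus) and RELB (chr19:45001461-45038192, plus). The inhibitor and feedback genes are NFKBIA (chr14:35401079-35404749, minus), NFKBIE (chr6:44258166-44265788, minus), TNFAIP3 (chr6:137867214-137883314, plus) and BIRC3 (chr11:102317484-102339403, plus), and the kinase gene IKBKE lies at chr1:206470476-206496889 on the plus strand. ENSG00000267520 lies over 33.3% of the exon bases of REL on the same strand, and reads from there may be missing from the count of REL. At most 4.12% of the exon bases of any of the other 9 genes overlap a gene on the opposite strand.

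Promoters of 4 of these genes are shown because κB sites are the DNA elements through which NF-κB dimers act on their own inhibitors. The κB consensus was searched on both strands of the 250 bases before each RefSeq start (GRCh38.p14), and its matches are in capitals. The sequences of NFKBIA and BIRC3 are the full windows, and those of TNFAIP3 and NFKB1 end at the last base before the annotated gene.
NFKBIA, chr14:35404750-35404999, minus strand: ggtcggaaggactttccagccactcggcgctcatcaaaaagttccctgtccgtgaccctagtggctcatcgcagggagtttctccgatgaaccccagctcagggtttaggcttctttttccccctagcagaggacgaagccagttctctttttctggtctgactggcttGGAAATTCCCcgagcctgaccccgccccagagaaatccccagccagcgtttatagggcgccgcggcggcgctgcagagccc
BIRC3, chr11:102317234-102317483, plus strand: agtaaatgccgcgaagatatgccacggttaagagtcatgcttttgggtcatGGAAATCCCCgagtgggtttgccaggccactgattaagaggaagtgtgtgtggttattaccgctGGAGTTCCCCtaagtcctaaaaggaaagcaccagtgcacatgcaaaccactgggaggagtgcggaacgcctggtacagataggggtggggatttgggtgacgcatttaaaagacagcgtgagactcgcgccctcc
TNFAIP3, chr6:137867009-137867213, plus strand: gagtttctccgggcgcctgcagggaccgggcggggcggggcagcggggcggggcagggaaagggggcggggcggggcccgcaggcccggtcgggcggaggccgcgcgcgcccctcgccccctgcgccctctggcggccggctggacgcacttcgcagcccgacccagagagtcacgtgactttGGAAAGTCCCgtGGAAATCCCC
NFKB1, chr4:102501109-102501329, plus strand: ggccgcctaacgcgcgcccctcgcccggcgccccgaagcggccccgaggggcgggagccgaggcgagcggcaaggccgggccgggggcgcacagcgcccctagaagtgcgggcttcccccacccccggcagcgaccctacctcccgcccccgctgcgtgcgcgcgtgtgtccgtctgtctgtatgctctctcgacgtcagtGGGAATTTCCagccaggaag

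Counted from the RefSeq start, the NFKBIA match lies at bases -81 to -72, the BIRC3 matches at -199 to -190 and -135 to -126, the TNFAIP3 matches at -67 to -58 and -55 to -46, and the NFKB1 match at -49 to -40. The NFKBIA match, read on the other strand, has the same letters as that of NFKB1, GGGAATTTCC. Windows of RefSeq matched 8 of the 10 genes, 12 windows in all. At least 1 match was found in 7 of the 12 windows (58.3%), against 1828 of all 35116 promoter windows (5.2%), and at least 2 matches in 5 of the 12 (41.7%), against 0.64% of all windows. The genes were chosen as NF-κB subunits and feedback genes, so a share above that of all windows may follow from the choice. Overlapping matches were counted separately. NFKB2 had matches in 2 of its alternative starts, among them GGGACTTTCC at -21 to -12, and REL had a pair of overlapping matches from -47 to -37. The windows of RELA and IKBKE held none. NFKBIE and RELB have no entry in the promoter table. A match describes the sequence and was not tested for binding.

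Per length of merged exons (CPM per kilobase of all annotated exons of a gene, FPKM), RELA was the most abundant subunit in every group, with group means from 14.7 in 2D cells to 31.5 FPKM in tet-MUC1shRNA vehicle mammospheres. REL was by this measure the least abundant subunit in every group, at 0.741 to 1.97 FPKM. This rank rests on the 17129 bases of its merged exons, against 2997 for RELB. In CPM, REL was above RELB in the groups other than the tet-MYCshRNA cultures. The means were 21.15 against 6.70 CPM in 2D cells and 12.69 against 17.04 CPM in tet-MYCshRNA vehicle cultures. NFKBIA, the inhibitor that RELA dimers induce, was close to RELA in 2D cells (13.3 FPKM) and above it in the other 6 groups, up to 50.9 FPKM. The other feedback genes were lower, TNFAIP3 at 1.45 to 3.02, BIRC3 at 0.465 to 6.04 and NFKBIE at 0.904 to 2.01 FPKM. IKBKE was the lowest of the 10 in the mammosphere groups, at 0.249 to 0.781 FPKM, and stood at 0.993 FPKM in 2D cells. Its smallest count in a library was 35, and its SE was the largest of the 10 genes in the comparisons other than 3D against 2D, where that of NFKBIE was larger.

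**Figure D1:**
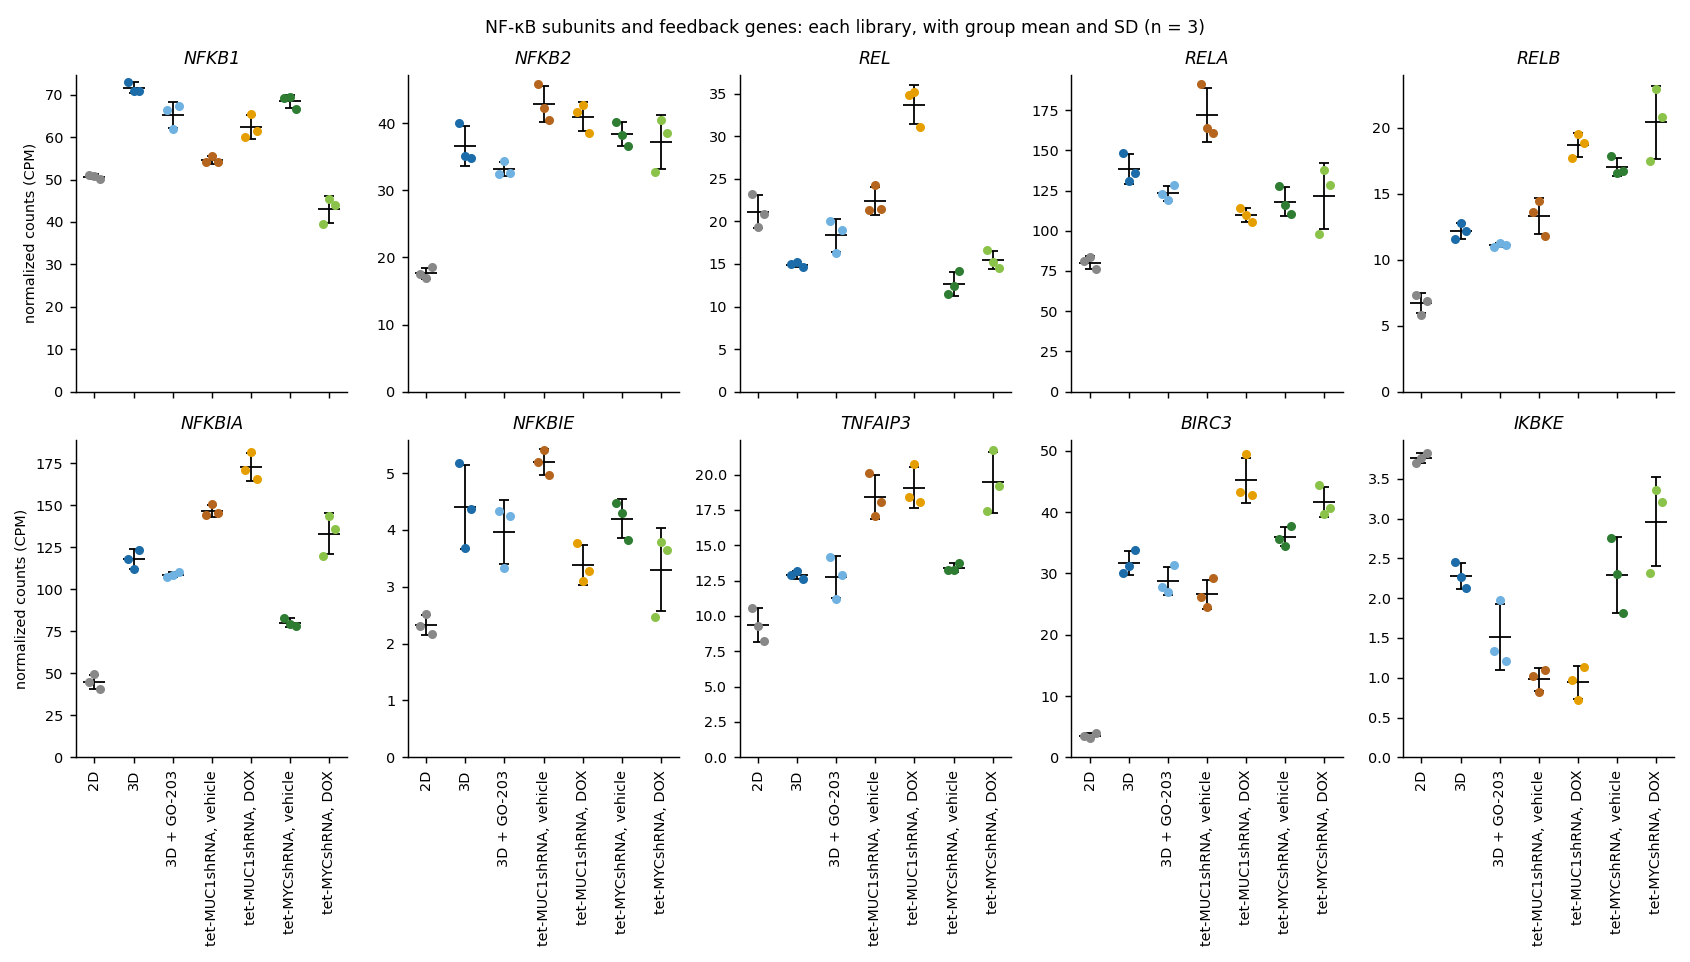
Normalized counts (CPM, linear axes from 0) of the 10 genes in the 7 groups; coloured points are the 3 libraries, black lines the mean and SD. BIRC3 lies at 3.08 to 3.90 CPM in 2D cells and at 24.6 CPM or more in every mammosphere library, whereas IKBKE is highest in 2D cells.

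In 3D against 2D cells, every member moved past the threshold, 8 up and 2 down. BIRC3 rose the most, 9.07-fold, followed by NFKBIA (2.61-fold) and NFKB2 (2.07-fold), whereas REL and IKBKE fell. The threshold here and below is an adjusted p below 0.1 over all genes by edgeR's quasi-likelihood test with Benjamini-Hochberg adjustment. Of the 19190 genes tested in this comparison, 32% passed it upwards and 31.7% downwards. With an absolute log2 fold change above 1.5 asked for as well, 1 of the 10 members (BIRC3) passed, against 16.2% of all genes. The median log2 fold change was 0.82 over the members and -0.007 over all genes tested.

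Among the subunits, NFKB2, the precursor of the noncanonical p52, was at 17.5, 17.0 and 18.5 CPM in 2D and at 40.0, 35.1 and 34.7 CPM in 3D cells (log2 fold change 1.05 ± 0.08 SE, edgeR adjusted p = 6.78e-09). RELB, its usual partner, went from 7.34, 5.84 and 6.91 to 11.6, 12.8 and 12.2 CPM (0.86 ± 0.11, edgeR adjusted p = 7.03e-06). RELA went from 81.2, 83.5 and 75.9 to 149, 131 and 136 CPM (0.78 ± 0.06, edgeR adjusted p = 1.91e-08). Of these 3 genes the 3D libraries were all above the 2D libraries. NFKB1 rose less, from 51.2, 50.9 and 50.04 to 73.1, 70.9 and 70.8 CPM (0.49 ± 0.06, edgeR adjusted p = 1.35e-06). REL, the subunit best known from lymphocytes, went the other way, from 23.3, 19.3 and 20.9 to 14.95, 15.2 and 14.7 CPM (-0.51 ± 0.09, edgeR adjusted p = 1.01e-04), again without overlap.

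Among the inhibitors and feedback genes, BIRC3 was at 3.46, 3.08 and 3.90 CPM in 2D and at 30.0, 31.2 and 33.9 CPM in 3D cells (3.18 ± 0.10, edgeR adjusted p = 1.59e-13). NFKBIA went from 44.7, 49.3 and 41.0 to 118, 112 and 124 CPM (1.39 ± 0.07, edgeR adjusted p = 4.76e-11). NFKBIE, the slower IκB, went from a mean of 2.33 ± 0.176 (SD, n = 3) to 4.41 ± 0.741 CPM, and TNFAIP3 from 9.35 ± 1.19 to 12.9 ± 0.270 CPM. The groups did not overlap for either gene, and both passed (NFKBIE 0.91 ± 0.17, TNFAIP3 0.46 ± 0.11). IKBKE fell from 3.70, 3.76 and 3.83 to 2.45, 2.27 and 2.12 CPM (-0.73 ± 0.16, edgeR adjusted p = 0.00106).

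The vehicle cultures of the shRNA lines are also mammospheres, and 8 of the 10 members kept their direction and passed against 2D cells in both. Of all genes tested, 36.1% passed upwards and 37.8% downwards in the tet-MUC1shRNA line, and 33.8% and 32.4% in the tet-MYCshRNA line. BIRC3 was higher by 2.93 ± 0.11 (log2, tet-MUC1shRNA vehicle) and 3.37 ± 0.10 (tet-MYCshRNA vehicle), and IKBKE was lower in both (-1.94 ± 0.19 and -0.71 ± 0.17). REL did not hold: it was at 0.08 ± 0.09 against 2D in the tet-MUC1shRNA line (edgeR adjusted p = 0.441) and at -0.73 ± 0.10 in the tet-MYCshRNA line. NFKB1 was at 0.10 ± 0.06 in the tet-MUC1shRNA line (edgeR adjusted p = 0.123) and at 0.44 ± 0.05 in the tet-MYCshRNA line. The comparison with the tet-MYCshRNA line was added after the data were seen. Both lines differ from the 3D cells in transduction and puromycin selection, and the tet-MYCshRNA line also in passage (8 against 6). Their vehicle was 0.1% DMSO, which is not given for the 3D cells.

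**Figure D2:**
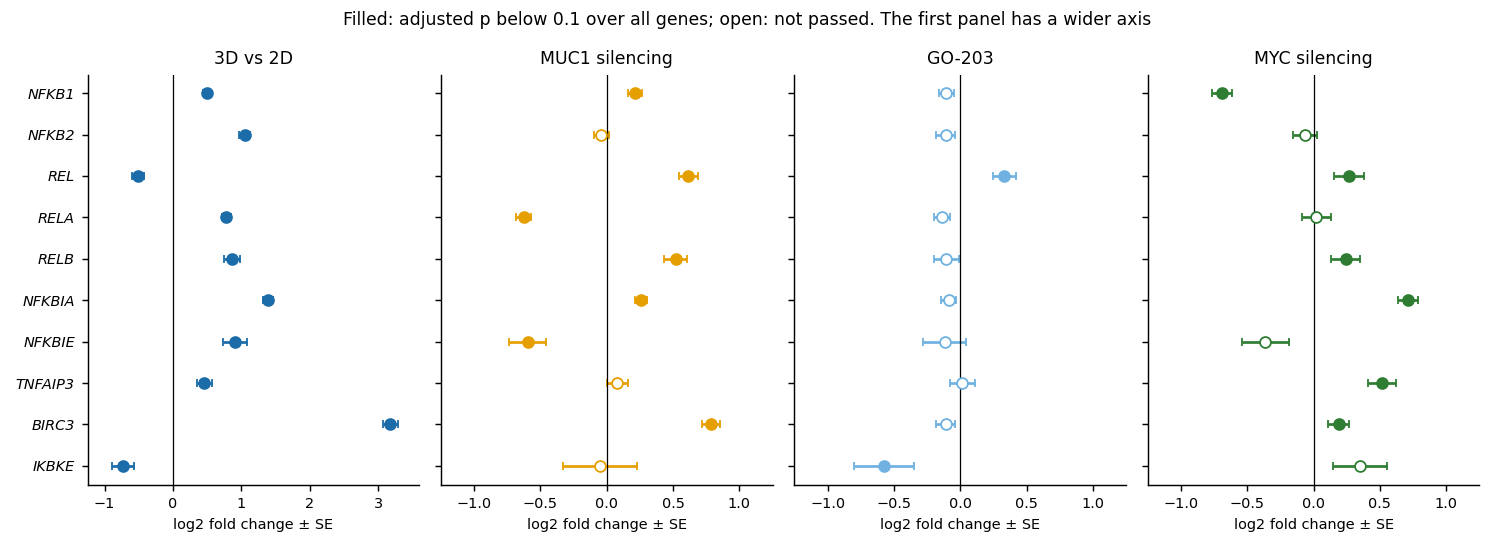
Log2 fold changes (± SE, edgeR) of the 10 genes in the 4 comparisons, each from 3 against 3 libraries; filled points passed the adjusted p over all genes, and the axis of the first panel is wider. All 10 points are filled for 3D against 2D, where BIRC3 lies at 3.18, and 2 are filled for GO-203.

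MUC1 silencing split the subunits: REL and RELB rose, RELA fell, and BIRC3 rose again. In all, 5 members rose (BIRC3, REL, RELB, NFKBIA and NFKB1) and 2 fell (RELA and NFKBIE), where 30.7% of the 19220 genes tested rose and 31.6% fell, so the share of members that passed was near that of all genes. None of the 10 passed with the log2 fold change above 1.5 (8.82% of all genes), the largest change upwards being 0.79 and downwards -0.62. The median log2 fold change of the members was 0.15, against 0.024 over all genes. Scaling by library size alone moved the median of all genes upwards by 0.166 in this comparison, which is close to the size of the smaller changes, and the 7 calls and their directions held under it. Among all the genes that passed, the share that rose went from 49.3% to 64.4%.

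RELA was at 191, 164 and 161 CPM in vehicle and at 114, 110 and 106 CPM in DOX cultures (-0.62 ± 0.06, edgeR adjusted p = 5.35e-09). REL was at 21.3, 24.3 and 21.5 CPM and at 34.9, 35.2 and 31.1 CPM (0.62 ± 0.07, edgeR adjusted p = 1.62e-07), and RELB at 13.6, 14.5 and 11.8 CPM and at 17.7, 19.6 and 18.8 CPM (0.52 ± 0.08, edgeR adjusted p = 2.28e-05). The 3 genes thus moved by similar amounts on the log2 scale, RELA downwards and REL and RELB upwards, with no overlap between groups. NFKB1 rose slightly, from 54.1, 55.6 and 54.1 to 60.1, 65.6 and 61.4 CPM (0.21 ± 0.05, edgeR adjusted p = 0.0013). NFKB2 did not pass (-0.04 ± 0.06, edgeR adjusted p = 0.592), and its groups overlapped at 40.5 to 45.8 and 38.5 to 42.7 CPM. With library size alone it turned to 0.13 and passed (edgeR adjusted p = 0.0607).

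BIRC3 was at 26.1, 24.6 and 29.2 CPM in vehicle and at 43.4, 49.4 and 42.8 CPM in DOX cultures (0.79 ± 0.07, edgeR adjusted p = 4.25e-09). The DOX cultures held the highest group mean of BIRC3 in the series, 45.2 ± 3.69 CPM. NFKBIA rose from 144, 151 and 146 to 171, 182 and 166 CPM (0.26 ± 0.04, edgeR adjusted p = 4.02e-05), although RELA, the subunit that IκBα mainly holds, fell in the same cultures. NFKBIE fell from 5.20, 5.41 and 4.96 to 3.77, 3.09 and 3.27 CPM (-0.60 ± 0.14, edgeR adjusted p = 8.01e-04). TNFAIP3 (0.08 ± 0.08, edgeR adjusted p = 0.401, but 0.00867 with library size alone) and IKBKE (-0.05 ± 0.28, edgeR adjusted p = 0.893) did not pass, and their groups overlapped. IKBKE was at 0.724 to 1.14 CPM over these 6 libraries, its lowest level in the series.

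With GO-203, 2 of the 10 members passed, a share near that of all genes. REL rose, from 14.95, 15.2 and 14.7 CPM in control to 20.0, 16.2 and 18.9 CPM in treated 3D cells (0.33 ± 0.09, edgeR adjusted p = 0.00871), and IKBKE fell from 2.45, 2.27 and 2.12 to 1.33, 1.98 and 1.21 CPM (-0.58 ± 0.23, edgeR adjusted p = 0.0839). Of the 18488 genes tested, 11.1% rose and 12.9% fell, and 0.757% passed with the log2 fold change above 1.5, none of the members among them. The median log2 fold change of the members was -0.11, against 0.015 over all genes. REL passed in all 6 fits that each left out 1 library, whereas IKBKE passed in 2 of the 6 and missed the threshold when libraries were scaled by size alone (edgeR adjusted p = 0.103).

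The other 8 members did not pass. RELA was at 123, 119 and 128 CPM in treated cells, below each control library, at -0.13 ± 0.06 (edgeR adjusted p = 0.135), and it passed with DESeq2 (adjusted p = 0.0711). RELB was at 11.0, 11.2 and 11.1 CPM and NFKBIA at 107, 109 and 110 CPM, likewise below each control library by small amounts (-0.10 ± 0.09 and -0.09 ± 0.06). NFKB1 and NFKB2 also lay below each control library (-0.10 ± 0.06 and -0.11 ± 0.07). The share of all genes that lay apart in this way was not counted. BIRC3 was at 27.8, 27.0 and 31.4 CPM and overlapped the control cells (-0.11 ± 0.07, edgeR adjusted p = 0.306). Among these 8 genes, 7 values were below 0 and TNFAIP3 was at 0.02 ± 0.10. The duration of GO-203 treatment is not given in the labels of these libraries. MUC1 itself was at 257, 264 and 244 CPM in treated and 217, 222 and 182 CPM in control cells, so the peptide's effect cannot be read from the level of its target.

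MYC silencing lowered NFKB1 and raised NFKBIA and TNFAIP3. With the weaker rises of REL, RELB and BIRC3, 5 members rose and 1 fell, where 30.3% of the 19951 genes tested rose and 28.1% fell, again a similar share in all. None passed with the log2 fold change above 1.5 (10.5% of all genes), the largest change upwards being 0.71, and the median was 0.22 over the members and 0.009 over all genes. NFKB1 was at 69.3, 69.5 and 66.7 CPM in vehicle and at 39.5, 45.5 and 43.9 CPM in DOX cultures (-0.69 ± 0.07, edgeR adjusted p = 2.26e-05), its lowest level in the series. NFKBIA was at 83.2, 79.4 and 78.1 CPM and at 120, 144 and 136 CPM (0.71 ± 0.08, edgeR adjusted p = 2.3e-05). TNFAIP3 was at 13.2, 13.2 and 13.8 CPM and at 17.4, 21.8 and 19.2 CPM (0.52 ± 0.10, edgeR adjusted p = 0.00183). None of these 3 genes had overlapping groups.

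The rises of REL (0.26 ± 0.11), RELB (0.24 ± 0.11) and BIRC3 (0.19 ± 0.08) were smaller, with edgeR adjusted p-values of 0.0747, 0.0933 and 0.0713. They did not pass in a fit with the replicate number as a block, which left 3 of the 6 calls, and REL passed in 2, RELB in 1 and BIRC3 in 1 of the 6 fits without a library. RELA did not pass (0.02 ± 0.11, edgeR adjusted p = 0.892), with 98.2, 138 and 129 CPM in DOX against 128, 116 and 110 CPM in vehicle cultures. DOX replicate 1 was the lowest of the 3 DOX cultures for NFKB1, NFKB2, RELA, RELB, NFKBIA, NFKBIE, TNFAIP3 and IKBKE, and without it RELA was at 0.15 (edgeR adjusted p = 0.0795). NFKBIE was lower in DOX cultures (2.46, 3.79 and 3.65 against 4.47, 4.30 and 3.82 CPM) and did not pass (-0.37 ± 0.18, edgeR adjusted p = 0.112). It passed in 4 of 8 alternative fits (adjusted p of 0.0738 in a joint edgeR fit of the 21 libraries) and in 1 of the 6 fits without a library. Over those 6 fits its value ran from -0.476 to -0.201. NFKB2 (-0.06 ± 0.09) and IKBKE (0.35 ± 0.21) did not pass either. MUC1 was at 139, 194 and 167 CPM in the MYC-silenced cultures and at 66.5, 67.1 and 73.4 CPM in their vehicle cultures, and its part in the changes of these genes was not tested.

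The effects of MUC1 and MYC silencing, which share no library, were compared in one fit of 12 libraries. They differed for 6 members. The MUC1 effect was the higher for NFKB1 (by 0.89 ± 0.09 on the log2 scale, edgeR adjusted p = 2.23e-07), BIRC3 (0.58 ± 0.11) and REL (0.34 ± 0.13), and the lower for RELA (-0.66 ± 0.14), NFKBIA (-0.47 ± 0.09) and TNFAIP3 (-0.45 ± 0.14), where 26% and 26.9% of the 21585 genes tested differed upwards and downwards. NFKB1 was the single member that passed in opposite directions, up with MUC1 silencing and down with MYC silencing. NFKBIA passed upwards in both, by more with MYC silencing. The lines and passages differ along with the shRNA and cannot be told apart from it.

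The MUC1 effect and that of GO-203, both aimed at MUC1-C, differed for 7 members. Silencing gave the higher effect for BIRC3 (by 0.90 ± 0.10 on the log2 scale, edgeR adjusted p = 5.57e-08), RELB (0.63 ± 0.12), NFKBIA (0.35 ± 0.07), NFKB1 (0.32 ± 0.08) and REL (0.29 ± 0.11), and the lower for RELA (-0.49 ± 0.09) and NFKBIE (-0.48 ± 0.21). Of the 20829 genes tested, 20.8% and 24.1% differed upwards and downwards. REL was the single member past the threshold upwards in both, by less with GO-203.

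**Figure D3:**
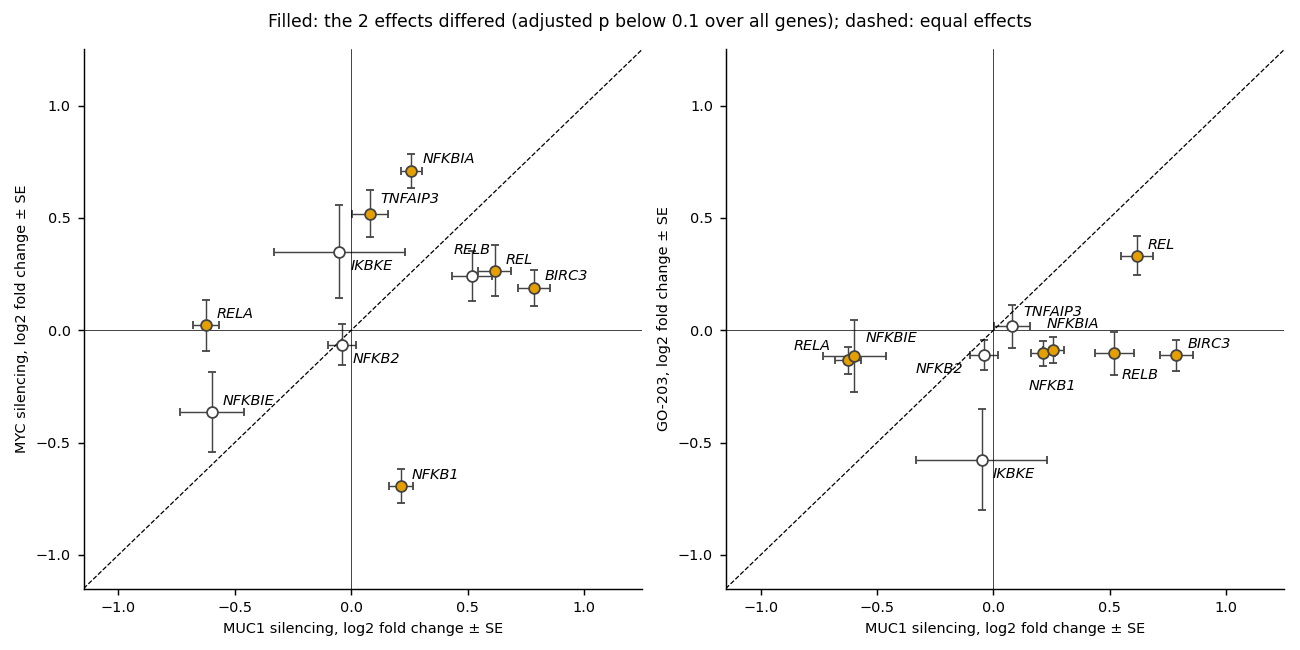
Log2 fold change (± SE) with MUC1 silencing (x axis) against that with MYC silencing (left) or GO-203 (right) for the 10 genes, on equal axes with the line of equal effects dashed; filled points are genes whose effects differed. NFKB1 lies at 0.21 for MUC1 and -0.69 for MYC silencing, and BIRC3 at 0.79 for MUC1 silencing and -0.11 for GO-203.

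Ratios between genes within a library do not depend on its scaling, and 5 were computed from length-corrected counts after the changes of the single genes had been seen, so they describe the same data. The ratio of REL to RELA was lowest in 3D and tet-MYCshRNA vehicle cells (log2 -4.86 ± 0.11 and -4.87 ± 0.26, SD, n = 3) and highest in MUC1-silenced cells (-3.36 ± 0.06), above the 2D cells (-3.58 ± 0.16). It was higher by 1.24 ± 0.13 (log2, SE) with MUC1 silencing, by 0.46 ± 0.10 with GO-203, and it was at a difference of -1.28 ± 0.11 between 3D and 2D cells. RELB to RELA went from -2.83 ± 0.17 to -1.69 ± 0.12 with MUC1 silencing, whereas it was at -2.72 in 2D and -2.64 in 3D cells, which overlapped. With MYC silencing it stood at -1.70 ± 0.07 against -1.93 ± 0.06, a difference of 0.22 ± 0.05 (SE) without overlap and a level near that of the MUC1-silenced cells (exact permutation p = 0.1, the smallest that 3 against 3 libraries allow). NFKBIA to RELA was at -0.15 ± 0.07 in 2D and 0.46 ± 0.10 in 3D cells, and was higher with MUC1 silencing by 0.88 ± 0.10 and with MYC silencing by 0.70 ± 0.08.

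NFKB2 to NFKB1 was at -0.03 ± 0.08 in 2D and 0.52 ± 0.09 in 3D cells. It changed by 0.63 ± 0.04 with MYC silencing and by -0.26 ± 0.07 with MUC1 silencing. NFKB1 to RELA changed by 0.84 ± 0.10 with MUC1 silencing and by -0.71 ± 0.10 with MYC silencing. All the ratio changes named here with an SE had groups that did not overlap and an exact two-sided permutation p of 0.1, the smallest that 3 against 3 libraries can give. GO-203 left the groups overlapping for the ratios other than REL to RELA.

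**Figure D4:**
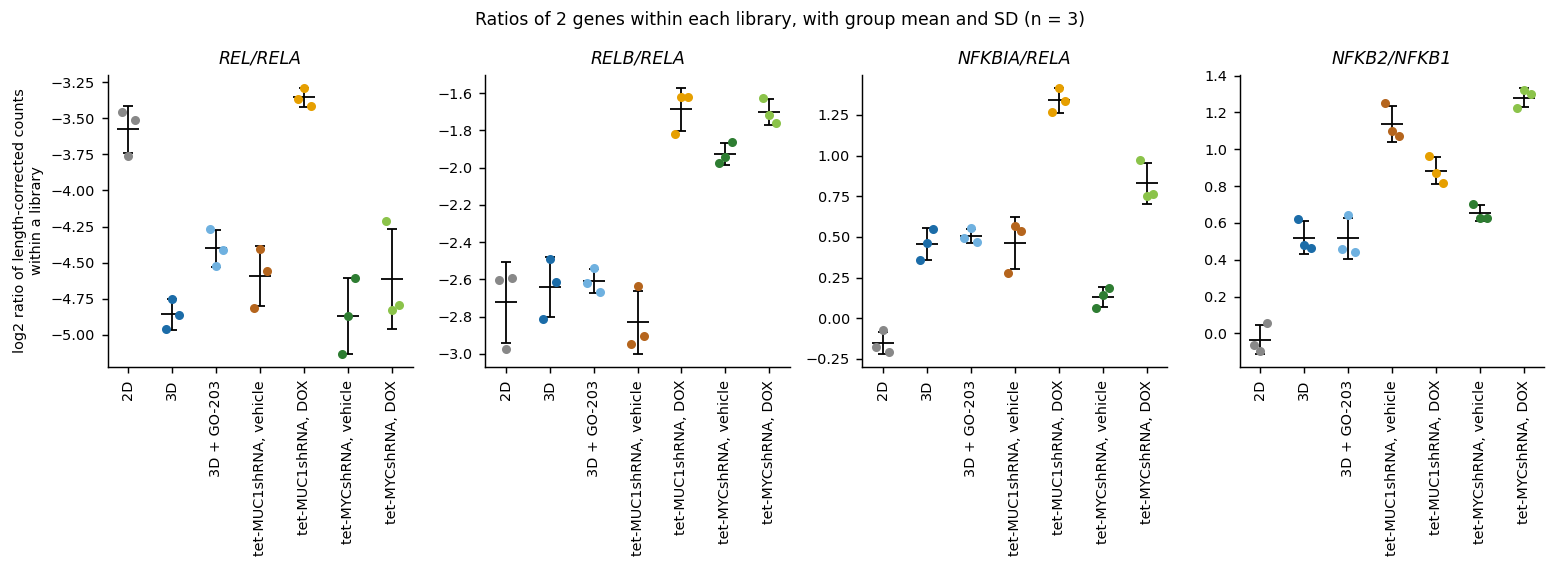
Log2 ratios of length-corrected counts within each library for 4 gene pairs in the 7 groups; points are the 3 libraries, black lines the mean and SD. REL/RELA lies at -3.36 on average in MUC1-silenced cells and at -4.86 in 3D cells, and NFKBIA/RELA at 1.34 in MUC1-silenced cells.

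Over the 7 groups, the group means ranged 12.99-fold for BIRC3, 3.99-fold for IKBKE, 3.84-fold for NFKBIA, 3.05-fold for RELB and 2.66-fold for REL, and between 1.67-fold (NFKB1) and 2.43-fold for the rest. The 2D cells had the lowest mean of 7 genes (NFKB2, RELA, RELB, NFKBIA, NFKBIE, TNFAIP3 and BIRC3) and the highest of IKBKE. For NFKB2, RELA, RELB, NFKBIA, TNFAIP3 and BIRC3 the 2D libraries lay apart from those of the next group, whereas for NFKBIE they overlapped the MYC-silenced cells. In the order of BIRC3 (2D, tet-MUC1shRNA vehicle, 3D + GO-203, 3D, tet-MYCshRNA vehicle, MYC-silenced, MUC1-silenced), the second overlapped the third, the third the fourth, and the sixth the last. In the order of REL, MUC1-silenced cells stood apart at the top, and from 3D upwards to tet-MUC1shRNA vehicle each group overlapped the next. BIRC3 was the single member whose group means ranged over at least 2 on the log2 scale (3.70), with IKBKE next at 1.99. The genes whose profile over the 7 groups was most like its own, of 13583 genes, were ENSG00000261468 (root mean square difference 0.169 on the log2 scale), TXNRD3 (0.219) and MIR222HG (0.225).

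The wider pathway was taken from a list of 78 other genes, of which 75 have a row in the table. In 3D against 2D cells, 27 of the 70 tested rose and 20 fell, near the shares of all genes (32% and 31.7%), with a median log2 fold change of 0.088 against -0.007 over all genes. Of 17 target genes 11 rose and 4 fell, and of 9 kinases and their partners 1 rose and 1 fell. CCL20, a chemokine gene, was at 0.0794 ± 0.0522 CPM in 2D and 9.89 ± 0.842 CPM in 3D cells, and PTGS2, which encodes cyclooxygenase 2, at 0.0526 ± 0.0313 and 5.45 ± 0.308 CPM. Of the receptors, TLR2 went from 0.0524 ± 0.0465 to 4.86 ± 0.395 CPM and TLR3 from 5.65 ± 0.849 to 0.269 ± 0.0741 CPM (edgeR adjusted p = 2.46e-10 and 1.35e-10). NFKBIZ, an atypical IκB of the nucleus, rose by 1.40 ± 0.06 on the log2 scale, and TNIP1, an A20-binding inhibitor, by 2.38 ± 0.07, whereas the related TNIP3 changed by -3.09 ± 0.28.

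With MUC1 silencing, 27 of 70 pathway genes rose and 19 fell, where 30.7% and 31.6% of all genes did, and their median was -0.002 against 0.024 over all genes. Of the 17 target genes tested, 7 rose and 7 fell. PTGS2 changed by -4.20 ± 0.12 on the log2 scale (44.4 ± 7.71 to 2.41 ± 0.357 CPM) and CXCL8, the interleukin 8 gene, by -2.08 ± 0.06 (138 ± 12.2 to 31.97 ± 2.42 CPM), so these targets fell where BIRC3 and NFKBIA rose. CYLD, a deubiquitinase that restrains NF-κB, rose by 1.2 ± 0.06, and RBCK1, a subunit of the linear ubiquitin ligase, changed by -0.99 ± 0.06. TNFRSF12A, the receptor of TWEAK, rose by 1.01 ± 0.10. Of the 9 kinases and their partners 4 rose and 3 fell. Those that rose were MAP3K14, TAB2, IKBKB and TBK1, by 0.16 to 0.30, and those that fell were the kinase genes MAP3K7 (TAK1) and CHUK (IKKα), which changed by -0.56 ± 0.05 and -0.23 ± 0.05, and IKBKG (NEMO, the regulatory subunit of the IKK complex) by -0.56 ± 0.14.

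With GO-203, 11 of 68 pathway genes rose and 16 fell, where 11.1% and 12.9% of all genes did, and their median was 0.022 against 0.015 over all genes. Fewer pathway genes passed when treated replicate 1 was left out. IL6 rose by 1.07 ± 0.09 on the log2 scale (7.90 ± 0.374 to 16.3 ± 0.613 CPM), and CXCL8 changed by -0.78 ± 0.07, TLR2 by -1.12 ± 0.17 and TNIP1 by -0.67 ± 0.07. With MYC silencing, 29 of 68 rose and 20 fell, where 30.3% and 28.1% of all genes did, and their median was 0.143 against 0.009 over all genes. Of 21 receptors and adaptors, 12 rose and 6 fell. CXCL8 changed by -3.32 ± 0.11 (136 ± 19.5 to 13.8 ± 0.988 CPM). TLR3 was at 0.160 ± 0.0758 and 4.49 ± 0.909 CPM, and TNFRSF1B, the second TNF receptor, at 0.841 ± 0.113 and 6.58 ± 0.678 CPM. CYLD rose by 1.0 ± 0.09, and CHUK, which encodes IKKα, changed by -0.54 ± 0.08. Of the target genes, 5 of 16 rose and 4 fell with GO-203, and 4 of 15 rose and 6 fell with MYC silencing. CXCL8 fell with MUC1 silencing, GO-203 and MYC silencing (edgeR adjusted p = 1.99e-16, 1.01e-07 and 1.17e-08). PTGS2 fell in the same comparisons, by -4.20 ± 0.12, -0.64 ± 0.17 and -1.19 ± 0.18 (edgeR adjusted p = 1.2e-16, 0.00925 and 2.22e-04). Some other targets went in different directions. IL6 changed by -1.56 ± 0.11 with MUC1 silencing and rose by 1.05 ± 0.14 with MYC silencing (edgeR adjusted p = 2.54e-10 and 1.22e-04). CXCL1, chosen for mention after its values were seen, rose by 0.56 ± 0.05 with MUC1 silencing and changed by -0.72 ± 0.06 with GO-203 and by -1.47 ± 0.06 with MYC silencing.

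**Figure D5:**
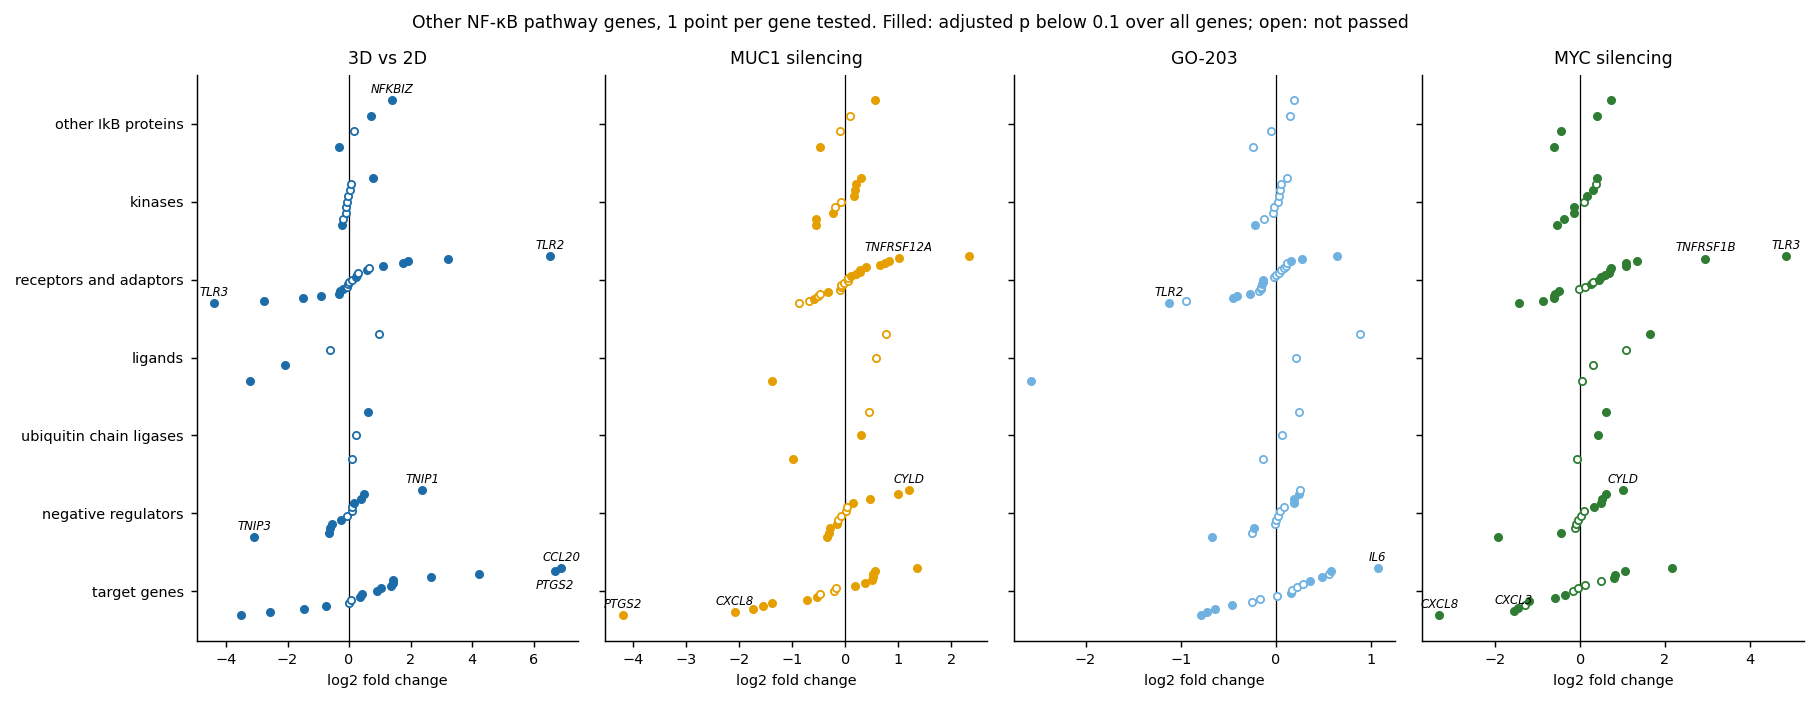
Log2 fold changes of the other pathway genes by list (rows) in the 4 comparisons (panels, each with its own axis), 1 point per gene tested; filled points passed the adjusted p over all genes, and some named genes are labelled. CXCL8 lies at -2.08 with MUC1 and -3.32 with MYC silencing, and PTGS2 at -4.20 with MUC1 silencing.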

How the data were processed

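Total RNA of 21 BT-549 cultures (3 in each of 7 groups, taken from the labels) had been sequenced from stranded mRNA libraries. The authors deposited raw counts, 1 whole number per gene and library, from reads aligned with STAR (version 2.7.3a in the submitters' processing notes) to GRCh38 and counted with featureCounts. Annotation release, strand setting and treatment of reads with several positions are not given in the sources used here. The counts lacked a value for 4952 to 7587 genes in each of 4 blocks of libraries, read here as 0. None of these absent genes is a member, and 0 columns of other samples were present.

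In R 4.3.3, each pair of groups was fitted on its own 6 libraries with edgeR 4.0.16 (filterByExpr, TMM factors, quasi-likelihood test, Benjamini-Hochberg adjustment over all genes tested, threshold 0.1), and the differences of effects as interactions. The SE of a log2 fold change is its size divided by the square root of F. All 10 members passed the filter in every fit. CPM used TMM factors over the 21 libraries, and FPKM the merged exon length of GENCODE release 44. With totals of 38026597 to 99751717 counts, the spread between cultures sets the precision for most genes. The cultures are triplicate experiments, and p-values measure their spread, which may be technical. No pair of replicates agreed within sampling noise (chi-square per degree of freedom 4.13 to 45.6).

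The members and gene lists were chosen with earlier results of these data known. LTA, LTB and SOD2, listed for the pathway, were not analysed here. Named pathway genes were up to 2 per list and comparison, those with the largest changes among genes that passed, whose groups did not overlap and whose mean count reached 100. Some were named outside this rule: MAP3K14, TAB2, IKBKB, TBK1 and CHUK with MUC1 silencing, and CXCL1. The others were IL6 with MUC1 and MYC silencing, and PTGS2 with GO-203 and MYC silencing. Genes alike to a member, over group means as log2(CPM + 0.5), were sought among genes of at least 1 CPM. Alternatives were DESeq2 1.42.0, RLE factors, library size alone, scaling without mitochondrial genes, filters of 1 count and of 10 counts in every library, the replicate number as a block, a joint fit of 21 libraries, an adjusted p of 0.05, an added log2 fold change of 1.5, and leaving out each library. Statistics were tested on simulated data first.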

Additional observations from a re-analysis of the deposited data

Results flagged for a closer look

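The effects of MUC1 and MYC silencing differed for 6 of the 10 genes by the test of the difference itself, on the log2 scale as the MUC1 effect minus the MYC effect. Of all genes tested, 26% differed upwards and 26.9% downwards, so this share is near that of all genes. The difference was 0.89 for NFKB1, 0.58 for BIRC3, 0.34 for REL, -0.66 for RELA, -0.47 for NFKBIA and -0.45 for TNFAIP3, with edgeR adjusted p-values of 2.23e-07, 3.36e-04, 0.0467, 8.01e-04, 3.75e-04 and 0.0106. Leaving out 1 library at a time gave 5 to 7 such genes. With library size alone, which moved the median of all genes by 0.204, 6 genes passed.

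The effects of MUC1 silencing and of GO-203 differed for 7 of the 10 genes, where 20.8% of all genes tested differed upwards and 24.1% downwards. The difference, MUC1 silencing minus GO-203, was 0.90 for BIRC3, 0.63 for RELB, 0.35 for NFKBIA, 0.32 for NFKB1, 0.29 for REL, -0.49 for RELA and -0.48 for NFKBIE, with edgeR adjusted p-values of 5.57e-08, 1.51e-04, 2.39e-04, 0.00117, 0.0379, 4.59e-05 and 0.0735. Leaving out 1 library at a time gave 5 to 7 such genes. With library size alone, which moved the median of all genes by 0.155, 7 genes passed. The transduced line goes with the treatment here and cannot be told apart from it.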

How the results depend on the processing

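Of the calls of single members, those of 3D against 2D and of MUC1 silencing held in every fit without 1 library. REL in 3D against 2D turned to 0.078 with tet-MUC1shRNA vehicle mammospheres in place of the 3D cells (edgeR adjusted p = 0.441), and NFKB2 with MUC1 silencing turned to 0.127 with library size alone (edgeR adjusted p = 0.0607). Library size alone moved the median of all genes upwards by 0.166 with MUC1 silencing. The cause of these changes of sign was not tested. An added log2 fold change above 1.5 left 1 member in 3D against 2D and 0 with MUC1 silencing, GO-203, MYC silencing and in both differences of effects, and left 17, 5, 1 and 7 pathway genes in the 4 comparisons, against 47, 46, 27 and 49. For GO-203, library size alone and an adjusted p of 0.05 each left 1 of 2 members. Leaving out 1 library at a time gave 1 to 2 members and 17 to 27 pathway genes for GO-203 (17 without treated replicate 1, and 1 member without control replicate 1 or treated replicate 1 or 3) and 3 to 6 members for MYC silencing (3 without vehicle replicate 1 or 2). For MYC silencing, the replicate block left 3 of 6 members and an adjusted p of 0.05 left 3.

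The replicate numbers did not pair the cultures (mean correlation of same-numbered libraries -0.039, 0.029, 0.11 and -0.18 in the 4 comparisons). Beside the MYC calls of REL, RELB and BIRC3 (edgeR adjusted p = 0.157, 0.188 and 0.168 with the replicate block), the block changed 1 other member call, that of RELA with GO-203 (0.0882). Depth limits IKBKE and NFKBIE, with at least 35 and 104 counts per library.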
